A study of Mus musculus with 12 samples.

Results

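The dual-specificity MAP kinase phosphatases are a gene family that was followed here in mouse bone marrow-derived macrophages with and without the histone deacetylase Hdac3. The members were the 9 genes Dusp1, Dusp2, Dusp4, Dusp5, Dusp6, Dusp7, Dusp8, Dusp10 and Dusp16, taken by the gene symbols of the array's probe annotation. They are 9 of 19945 genes tested and have 10 of the table's 28193 probe sets, because Dusp8 has 2. RNA levels were read with whole-transcript gene arrays from Affymetrix in 4 groups of 3 arrays. The groups were Hdac3 -/- macrophages given lipopolysaccharide (LPS, the outer membrane lipid of Gram-negative bacteria) at 100 ng/ml for 4 h, untreated Hdac3 -/- macrophages, and Hdac3 +/- macrophages with the same LPS treatment or untreated. All cells were grown from the marrow of C57BL/6 mice in medium conditioned by L929 cells, which supplies the macrophage growth factor, and were used on day 7 of differentiation. The Hdac3 +/- cells are called wild type in the labels but are heterozygous for the deletion. How the deletion was made, which part of the gene it removes, and the age of the mice are not given by the labels. The labels do not say whether replicates are separate animals. A p-value here speaks only of the spread among arrays within groups, pooled over the 4 groups, and part of that spread may be technical.

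MAP kinases of the ERK, JNK and p38 classes are switched on by phosphorylation of a threonine and a tyrosine in their activation loop, and in macrophages LPS does this through Toll-like receptor 4. The dual-specificity phosphatases remove both phosphates and so switch the kinases off. Several of their genes are themselves transcribed in response to MAP kinase signals, so the family is known for negative feedback on cytokine production. Dusp1, Dusp2, Dusp4 and Dusp5 encode nuclear enzymes. Dusp6 and Dusp7 encode cytoplasmic enzymes that prefer ERK. Dusp8, Dusp10 and Dusp16 encode enzymes that prefer JNK and p38. Hdac3 is the catalytic subunit of the NCoR and SMRT corepressor complexes, which remove acetyl groups from histones at repressed genes.

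Hdac3 itself averaged 7.11 log2 units in Hdac3 -/- and 8.86 in +/- macrophages after LPS, and 7.43 in -/- and 9.17 in +/- untreated macrophages, with no overlap between genotypes in either condition. Whether its probe set covers the deleted part is not known here. The median over all probe sets was between 5.19 and 5.37 on every array, and no array was left out. Of 10 macrophage marker genes the scavenger receptor Cd163 was between 3.90 and 4.75 and the other 9 were at 6.16 or more on every array, and the mean level of the 10 was between 11.68 and 11.94 on all arrays. The mean level of 8 neutrophil markers was 6.04 to 7.39 in -/- and 4.78 to 6.89 in +/- macrophages after LPS, and 4.46 to 5.77 in -/- and 4.70 to 5.13 in +/- untreated macrophages. After LPS the mean of 6 eosinophil markers was 4.59 to 4.91 in -/- and 5.27 to 6.09 in +/- macrophages, and that of 4 erythroid and megakaryocyte markers was 6.03 to 6.20 in -/- and 6.68 to 7.40 in +/- macrophages. Of these lists 0 of 8 neutrophil, 1 of 6 eosinophil (Ccr3, lower in -/-) and 0 of 4 erythroid and megakaryocyte markers differed between genotypes after LPS by the limma test used below. Untreated, the mean of the eosinophil markers was 4.37 to 4.49 in -/- and 4.54 to 4.99 in +/- macrophages, and with LPS 0 of 6 rose in -/- and 3 of 6 (Ccr3, Prg3 and Il5ra) in +/- macrophages. Of the macrophage markers Fcgr1, an Fc receptor, was lower in -/- macrophages after LPS (log2 difference -2.41) and untreated (-1.45). The part of these cells and markers in the results, that for Dusp2 included, was not tested. In RNA of a whole culture, fewer cells of a type and less RNA per cell cannot be told apart. Replicate 1 of the Hdac3 +/- group stood apart in both treatments, with Xist at 3.20 after LPS and 3.93 untreated and with Y-linked Eif2s3y at 7.93 after LPS and 7.76 untreated. Xist was between 9.67 and 10.97 and Eif2s3y between 2.20 and 2.47 on the other 10 arrays. By these genes the 2 arrays of +/- replicate 1 hold male cells and the other 10 female cells. That replicate thus came from another animal than the other +/- replicates, and the sexes are mixed in the +/- groups only. Results of the members that change without the 2 male arrays are given with and without them.

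Promoter windows of 8 of the 9 members were found in RefSeq for GRCm38.p6, from 250 bases before to 50 bases after the annotated start. Dusp4 was the member not matched. The windows of 4 genes with higher signal after LPS are shown 5′ to 3′ on the gene's strand, to set the letters of these genes beside one another. Capitals mark matches to the searched motifs. The positions are chr17:26508423-26508722 on the minus strand for Dusp1, chr2:127335909-127336208 on the plus strand for Dusp2, chr19:53528895-53529194 on the plus strand for Dusp5 and chr6:134792579-134792878 on the minus strand for Dusp16. The annotated starts used for Dusp7, Dusp8 and Dusp16 lie inside the gene, downstream of its outermost start.
Dusp1: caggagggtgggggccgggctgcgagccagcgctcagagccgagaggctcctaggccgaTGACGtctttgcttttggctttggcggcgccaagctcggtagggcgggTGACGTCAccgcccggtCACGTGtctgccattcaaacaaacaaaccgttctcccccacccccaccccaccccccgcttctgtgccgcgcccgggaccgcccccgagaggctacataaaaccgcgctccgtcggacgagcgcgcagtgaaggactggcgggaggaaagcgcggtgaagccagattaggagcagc
Dusp2: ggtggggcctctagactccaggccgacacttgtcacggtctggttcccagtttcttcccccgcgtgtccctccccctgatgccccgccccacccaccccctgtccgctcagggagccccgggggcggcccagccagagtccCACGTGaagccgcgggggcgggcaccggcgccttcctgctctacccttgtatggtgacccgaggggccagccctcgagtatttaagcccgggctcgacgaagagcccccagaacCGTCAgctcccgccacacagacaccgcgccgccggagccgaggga
Dusp5: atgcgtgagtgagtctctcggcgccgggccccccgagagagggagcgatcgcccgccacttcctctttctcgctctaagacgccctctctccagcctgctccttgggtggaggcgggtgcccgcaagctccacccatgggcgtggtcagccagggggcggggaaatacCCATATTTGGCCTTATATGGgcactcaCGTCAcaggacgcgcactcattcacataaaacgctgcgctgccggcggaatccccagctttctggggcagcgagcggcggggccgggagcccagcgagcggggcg
Dusp16: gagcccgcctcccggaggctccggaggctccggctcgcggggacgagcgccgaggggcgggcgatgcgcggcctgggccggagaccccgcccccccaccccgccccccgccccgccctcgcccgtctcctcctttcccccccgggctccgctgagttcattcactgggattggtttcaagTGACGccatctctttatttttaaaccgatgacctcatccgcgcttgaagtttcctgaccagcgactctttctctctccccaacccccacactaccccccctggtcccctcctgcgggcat
The motifs searched on both strands were the cAMP response element (CRE) TGACGTCA, its core TGACG, the AP-1 site TGANTCA, the E-box CACGTG, the ETS site CCGGAAG, and the NF-kB site and CArG box by their usual consensus. The core lies within each CRE, so every CRE is also counted as a core. Dusp1 had a CRE from -143 to -136, a separate core from -191 to -187 and an E-box from -126 to -121, counted from the start. Dusp2 had an E-box from -109 to -104 and a core from 6 to 10. Dusp5 had CArG boxes from -82 to -73 and from -72 to -63 and a core from -55 to -51. Dusp16 had a core from -70 to -66. Of the windows not printed, Dusp8 had CREs from -107 to -100 and from -63 to -56, and Dusp6, Dusp7 and Dusp10 held none of the searched letters. Among 32817 RefSeq promoters of the same length, 1.79% had the CRE, 20.8% the core, 7.81% the AP-1 site, 8.46% the NF-kB site, 7.15% the E-box, 8.86% the ETS site and 1.63% the CArG box. These matches are descriptions of the letters in the windows.

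At the threshold given below, LPS raised 3 members in Hdac3 -/- macrophages (Dusp1, Dusp4 and Dusp16) and lowered Dusp7. In Hdac3 +/- macrophages it raised 5 (those 3 and also Dusp2 and Dusp5) and again lowered Dusp7. The log2 change of Dusp5 was almost equal in the genotypes, 0.97 in -/- and 0.94 in +/- macrophages, though only the latter was called. The calls of Dusp5 and Dusp7 were close to the threshold. The nuclear phosphatase gene Dusp2 differed most between the genotypes: its signal after LPS was 5.46-fold lower in -/- than in +/- macrophages. A gene was called at an adjusted p under 0.05, from limma with Benjamini-Hochberg adjustment over 19945 genes. In -/- macrophages LPS raised 3.69% and lowered 5.18% of all genes (8.87% in either direction), and in +/- macrophages it raised 9.59% and lowered 15.5% (25.1% in either direction). The median log2 change of the 9 members with LPS was 0.75 in -/- and 0.94 in +/- macrophages, where the median of all genes was 0.02 in -/- and 0.08 in +/- macrophages. Counted without the model, the LPS arrays lay above the untreated arrays with no overlap for 5 members and below for 1 in either genotype. Over all genes these shares were 12.6% above and 15.7% below in -/- macrophages, and 18.1% above and 18.6% below in +/- macrophages.

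**Figure D1:**
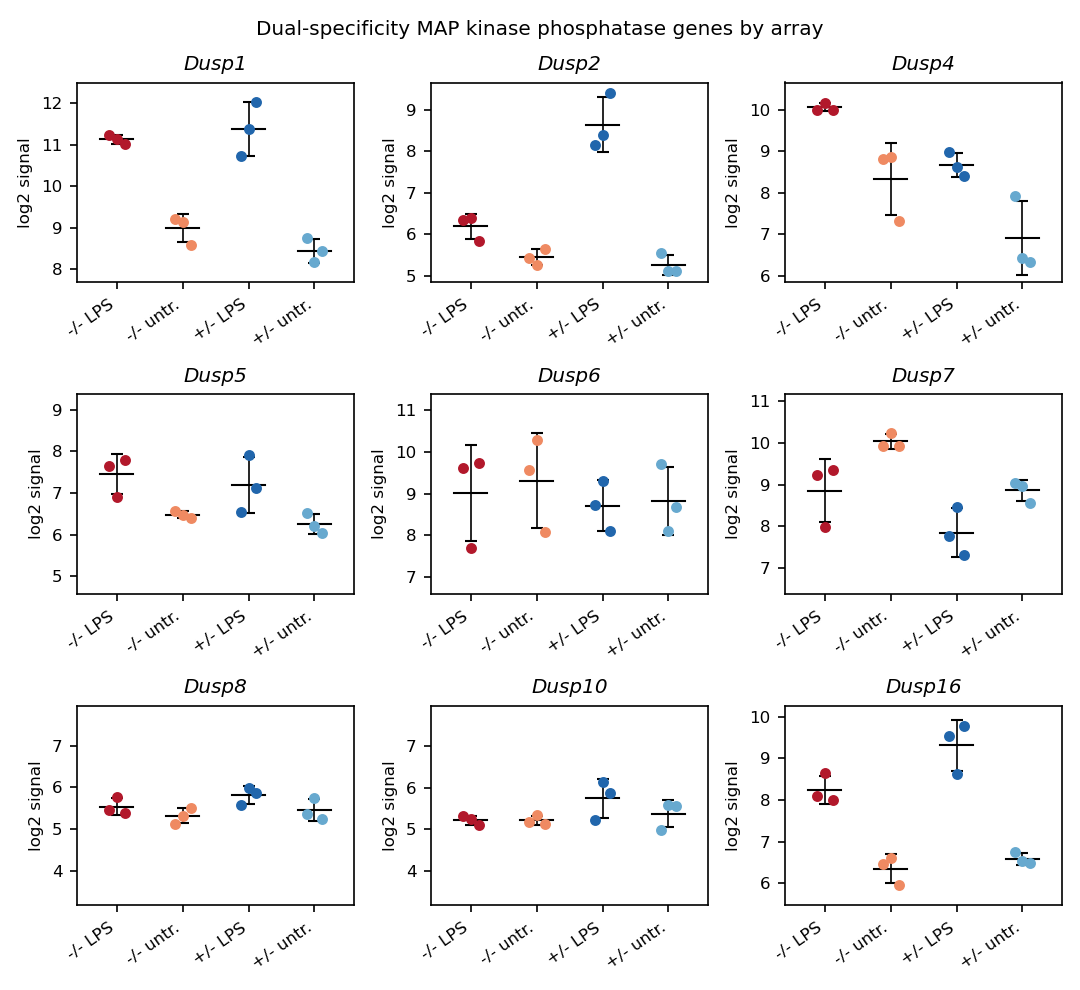
Log2 signal of each of the 9 genes by group, with a point per array, a line at the group mean and bars of 1 SD (n = 3 arrays). Every panel spans the same number of log2 units around its own centre, and levels are not to be compared between panels. For Dusp2 only the Hdac3 +/- LPS arrays stand high, between 8.14 and 9.39, above every Hdac3 -/- LPS array, the highest of which was 6.39.

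Among the nuclear enzymes, Dusp1 encodes the phosphatase best known for limiting p38 and JNK activity and cytokine release in macrophages given LPS. Its log2 signal was 11.23, 11.13 and 11.02 in Hdac3 -/- macrophages after LPS and 9.22, 9.14 and 8.60 in untreated -/- macrophages. In Hdac3 +/- macrophages it was 10.73, 11.38 and 12.02 after LPS and 8.75, 8.17 and 8.44 untreated. Every LPS array was higher than every untreated array of its genotype, and the genotypes overlapped in both conditions. Dusp1 rose 4.40-fold with LPS in -/- macrophages (log2 change 2.14 ± 0.27 SE, limma adjusted p = 0.000169) and 7.60-fold in +/- macrophages (2.93 ± 0.27 SE, adjusted p = 4.46e-06). The response in -/- macrophages was 73.1% of that in +/- macrophages on the log2 scale, but the difference of the responses, -0.79, had a 95% interval of -1.61 to 0.03 and an adjusted p of 0.46 by limma. After LPS the genotypes differed by -0.25 (95% interval -0.83 to 0.33, adjusted p = 0.585).

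Dusp2 encodes a nuclear phosphatase named for its induction in activated immune cells. Its log2 signal was 6.34, 6.39 and 5.85 in Hdac3 -/- macrophages after LPS and 5.44, 5.26 and 5.64 in untreated -/- macrophages. Hdac3 +/- macrophages had 8.14, 8.39 and 9.39 after LPS and 5.54, 5.11 and 5.13 untreated. The untreated arrays of both genotypes overlapped, while all LPS arrays of +/- macrophages were far above those of -/- macrophages, which in turn lay just above the untreated ones. In +/- macrophages Dusp2 rose 10.4-fold (log2 change 3.38 ± 0.269 SE, limma adjusted p = 1.17e-06). In -/- macrophages the log2 change was 0.75 ± 0.269, a 1.68-fold difference with an adjusted p of 0.116. The response in -/- macrophages was thus 22.1% of that in +/- macrophages on the log2 scale.

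The difference between the 2 responses of Dusp2 was itself tested. It was -2.64 ± 0.381 SE on the log2 scale (95% interval -3.46 to -1.82, limma adjusted p = 0.00382), and was rank 18 from the lowest of 19945 genes. Over all genes, 0.777% had a lower and 0.306% a higher response in -/- macrophages by this test (1.08% in either direction), and of the 9 members 1, Dusp2, was called. After LPS Dusp2 was lower in -/- macrophages by 2.45 log2 units (log2 difference -2.45 ± 0.269 SE, adjusted p = 4.36e-05), and 0.361% of genes had a difference at least as low. Untreated, the genotypes differed by 0.19 (95% interval -0.39 to 0.77, adjusted p = 0.881). Without replicate 1 of the +/- group, the difference of the responses was -3.03 (adjusted p = 0.00365) and the difference after LPS -2.70 (adjusted p = 7.98e-05). The small change of Dusp2 with LPS in -/- macrophages passed the test without +/- LPS replicate 3 (adjusted p = 0.0231), with array weights (0.0101) and when the -/- arrays were fitted alone (0.0212).

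Dusp4 encodes a nuclear phosphatase that acts on ERK and JNK. Log2 signals of 10.00, 10.16 and 10.00 were read in Hdac3 -/- macrophages after LPS and 8.80, 8.86 and 7.33 in untreated -/- macrophages. Values in Hdac3 +/- macrophages were 8.97, 8.62 and 8.41 after LPS and 7.93, 6.44 and 6.34 untreated. LPS arrays were above untreated arrays in both genotypes, and after LPS all -/- arrays were above all +/- arrays. The untreated groups overlapped, with -/- replicate 3 low and +/- replicate 1 high. Dusp4 rose 3.31-fold with LPS in -/- macrophages (log2 change 1.73 ± 0.415 SE, limma adjusted p = 0.0177) and 3.39-fold in +/- macrophages (1.76 ± 0.415 SE, adjusted p = 0.00678). The difference of the responses was -0.04 (95% interval -1.30 to 1.23, adjusted p = 0.99), an interval that still holds differences of over 1 log2 unit either way.

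After LPS Dusp4 was 2.62-fold higher in -/- than in +/- macrophages (log2 difference 1.39 ± 0.415 SE, limma adjusted p = 0.0369). The SE rests on the spread within all 4 groups together. After LPS the SD of Dusp4 was 0.0932 in -/- and 0.286 in +/- macrophages. Untreated it was larger, 0.867 in -/- and 0.894 in +/- macrophages. The call of Dusp4 after LPS did not hold in 9 of 24 alternatives, in which the difference stayed between 1.21 and 1.42. The adjusted p was 0.0887 without -/- LPS replicate 1, 0.0864 without replicate 2 and 0.102 without replicate 3. It was 0.0902 without +/- LPS replicate 2 and 0.131 without replicate 3. It was also 0.0561 with quantile normalization, 0.0759 with cyclic loess, 0.0512 with median centring and 0.0785 with robust eBayes. Untreated, Dusp4 differed by 1.42 ± 0.415 SE (adjusted p = 0.102), which only 0.321% of genes reached or exceeded. That difference was 1.94 (adjusted p = 0.0132) without +/- untreated replicate 1 and 1.92 (adjusted p = 0.0145) without -/- untreated replicate 3. It was also 1.94 (adjusted p = 0.0169) without replicate 1 of the +/- group in both treatments. The change with LPS in -/- macrophages had an adjusted p of 0.0572 without -/- LPS replicate 1, 0.0646 without replicate 2 and 0.07 without -/- untreated replicate 3.

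Dusp5 encodes a nuclear phosphatase specific for ERK. Its log2 signal was 7.64, 6.90 and 7.80 in Hdac3 -/- macrophages after LPS and 6.56, 6.48 and 6.40 in untreated -/- macrophages. Hdac3 +/- macrophages had 6.55, 7.91 and 7.12 after LPS and 6.51, 6.20 and 6.04 untreated. LPS arrays were above untreated arrays in both genotypes, by a narrow margin in +/- macrophages, and the genotypes overlapped. The log2 change with LPS was 0.97 ± 0.293 SE in -/- macrophages (limma adjusted p = 0.0586) and 0.94 ± 0.293 SE in +/- macrophages (adjusted p = 0.0307). The sizes were almost equal while only the second passed the test, and the difference of the responses was 0.02 (95% interval -0.87 to 0.92, adjusted p = 0.991). The change in +/- macrophages was 0.58 (adjusted p = 0.135) without +/- LPS replicate 2, and its adjusted p was 0.0669 without LPS replicate 3, 0.0627 without untreated replicate 2 and 0.107 without untreated replicate 3. The change in -/- macrophages passed the test in 10 of 25 alternatives, with an adjusted p of 0.0252 without -/- LPS replicate 2, 0.0256 without +/- LPS replicate 1, 0.0176 without +/- LPS replicate 2 and 0.0256 without replicate 1 of the +/- group in both treatments.

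**Figure D2:**
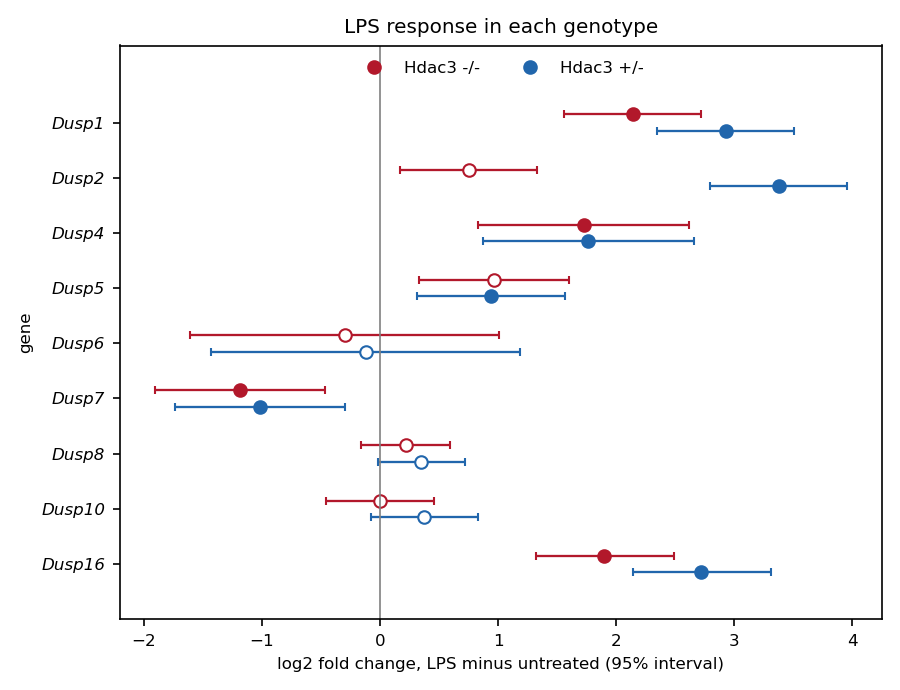
Log2 fold change with LPS in Hdac3 -/- (red) and Hdac3 +/- (blue) macrophages for each gene, LPS minus untreated, with 95% intervals from limma. Filled points passed an adjusted p of 0.05. The intervals of Dusp2 are apart (0.17 to 1.33 in -/- and 2.80 to 3.96 in +/-), and those of every other gene overlap.

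Of the cytoplasmic enzymes that prefer ERK, Dusp6 is known as a feedback target of ERK signalling. Log2 signals were 9.62, 7.68 and 9.73 in Hdac3 -/- macrophages after LPS and 9.56, 10.30 and 8.07 in untreated -/- macrophages. Hdac3 +/- macrophages had 8.72, 9.31 and 8.10 after LPS and 9.72, 8.11 and 8.67 untreated. All 4 groups overlapped, and replicates of a group differed by up to 2.23 log2 units. No comparison of Dusp6 passed the test. The log2 change with LPS was -0.30 in -/- macrophages (95% interval -1.61 to 1.01) and -0.12 in +/- macrophages (-1.43 to 1.19). With 3 arrays a group, both intervals hold 0 and also changes of over 1 log2 unit either way.

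Dusp7 was the single member called lower after LPS. Log2 signals were 9.24, 7.98 and 9.34 in Hdac3 -/- macrophages after LPS and 9.93, 10.25 and 9.94 in untreated -/- macrophages. For Hdac3 +/- macrophages the values were 7.77, 8.47 and 7.30 after LPS and 9.04, 8.97 and 8.57 untreated. LPS arrays were below untreated arrays in both genotypes, and untreated -/- arrays were above untreated +/- arrays, while after LPS the genotypes overlapped. Dusp7 fell by 1.19 log2 units with LPS in -/- macrophages (-1.19 ± 0.334 SE, limma adjusted p = 0.04) and by 1.02 in +/- macrophages (-1.02 ± 0.334 SE, adjusted p = 0.0393). These calls were close to the threshold and did not hold in 10 of 25 alternatives in -/- and 11 of 25 in +/- macrophages. Without replicate 1 of the +/- group the adjusted p was 0.0593 in -/- and 0.155 in +/- macrophages, and with cyclic loess normalization 0.0624 in -/- and 0.112 in +/- macrophages. In -/- macrophages the change was -0.75 (adjusted p = 0.156) without -/- LPS replicate 2, and the adjusted p was 0.0928, 0.113 and 0.0855 without each untreated -/- array. It was 0.0504 without +/- LPS replicate 1. In +/- macrophages the change was -0.75 (adjusted p = 0.166) without +/- LPS replicate 3, and the adjusted p was 0.0741 without +/- LPS replicate 1, 0.0526 without -/- untreated replicate 1, and 0.108, 0.0813 and 0.0504 without each untreated +/- array.

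Dusp7 was higher in -/- than in +/- macrophages by 1.01 after LPS (± 0.334 SE, limma adjusted p = 0.0573) and by 1.18 untreated (± 0.334 SE, adjusted p = 0.0901), and neither difference passed the test. Only 0.486% of genes had an untreated difference at least as high. The difference after LPS passed in 4 of 24 alternatives and the untreated one in 3 of 24. The difference after LPS passed without -/- LPS replicate 2 (1.45, adjusted p = 0.00396) and without +/- LPS replicate 2 (1.32, adjusted p = 0.0219), and the untreated one without -/- LPS replicate 2 (adjusted p = 0.0213). The difference of the responses was -0.17 (95% interval -1.19 to 0.85, adjusted p = 0.923).

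Of the enzymes that prefer JNK and p38, Dusp16 encodes a phosphatase that acts mainly on JNK. Its log2 signal was 8.09, 8.64 and 8.01 in Hdac3 -/- macrophages after LPS and 6.47, 6.61 and 5.95 in untreated -/- macrophages. In Hdac3 +/- macrophages it was 9.55, 8.62 and 9.78 after LPS and 6.75, 6.54 and 6.48 untreated. LPS arrays were far above untreated arrays in both genotypes. After LPS the +/- arrays were higher with a single exception, replicate 2 at 8.62, which lay just below -/- replicate 2 at 8.64. Dusp16 rose 3.74-fold with LPS in -/- macrophages (log2 change 1.90 ± 0.272 SE, limma adjusted p = 0.000473) and 6.61-fold in +/- macrophages (2.72 ± 0.272 SE, adjusted p = 8.77e-06).

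After LPS Dusp16 was 2.10-fold lower in -/- than in +/- macrophages (log2 difference -1.07 ± 0.272 SE, limma adjusted p = 0.0164). The adjusted p was 0.0669 without -/- LPS replicate 1, 0.0829 without -/- LPS replicate 3, 0.0505 without +/- LPS replicate 1 and 0.0866 without +/- LPS replicate 3, with differences between -0.99 and -0.84. Without replicate 1 of the +/- group in both treatments it was -0.95 (adjusted p = 0.0571). The response in -/- macrophages was 69.8% of that in +/- macrophages on the log2 scale, and the difference of the responses was -0.82 (95% interval -1.65 to 0.01, adjusted p = 0.44).

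Dusp8 and Dusp10, phosphatases of JNK and p38, passed no comparison. Dusp8 ranged between 5.38 and 5.77 in Hdac3 -/- macrophages after LPS and between 5.13 and 5.50 in untreated -/- macrophages. Values of Hdac3 +/- macrophages ranged between 5.57 and 5.99 after LPS and between 5.24 and 5.75 untreated. Its groups overlapped in every comparison, and its log2 change with LPS was 0.22 in -/- (adjusted p = 0.58) and 0.35 in +/- macrophages (adjusted p = 0.154) by limma. A second probe set of Dusp8 averaged 3.32 ± 0.188 in -/- macrophages after LPS, 3.40 ± 0.129 in untreated -/- macrophages, 3.56 ± 0.208 in +/- macrophages after LPS and 3.40 ± 0.0391 in untreated +/- macrophages (SD, n = 3 each). Dusp10 was 5.31, 5.24 and 5.10 in -/- macrophages after LPS and 5.23, 6.14 and 5.87 in +/- macrophages after LPS. The +/- arrays reached higher, but replicate 1 fell within the -/- range. Untreated it ranged between 5.13 and 5.34 in -/- and between 4.99 and 5.57 in +/- macrophages. The log2 difference after LPS was -0.53 ± 0.212 SE (limma adjusted p = 0.112). It was -0.79 without +/- LPS replicate 1 (adjusted p = 0.0117) and -0.79 without replicate 1 of the +/- group in both treatments (adjusted p = 0.00385). Its change with LPS in +/- macrophages was 0.37 (adjusted p = 0.209), and 0.63 without +/- LPS replicate 1 (adjusted p = 0.0219). Without replicate 1 of the +/- group in both treatments that change was 0.44 and did not pass the test (limma adjusted p = 0.0633).

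Set side by side, the genotypes differed after LPS in 3 of 9 members: Dusp4 was higher and Dusp2 and Dusp16 lower in Hdac3 -/- macrophages. Over all genes 9.69% were higher and 5.99% lower in -/- macrophages after LPS by the same call, 15.7% in either direction. The arrays of the genotypes did not overlap for Dusp4, above, and for Dusp2, below, where 17.3% of all genes lay above and 14.5% below. The median log2 difference of the members was -0.25, against -0.04 over all genes. Untreated, 0 of 9 members were called by limma after adjustment, and Dusp4 and Dusp7 had an unadjusted p under 0.05, as did 2534 of all 19945 genes. Over all genes, 1.22% were higher and 1.44% lower in untreated -/- macrophages, 2.66% in either direction. The untreated arrays of the genotypes did not overlap for 1 member, Dusp7, with -/- above +/-, where 9.64% of all genes lay above and 8.35% below.

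**Figure D3:**
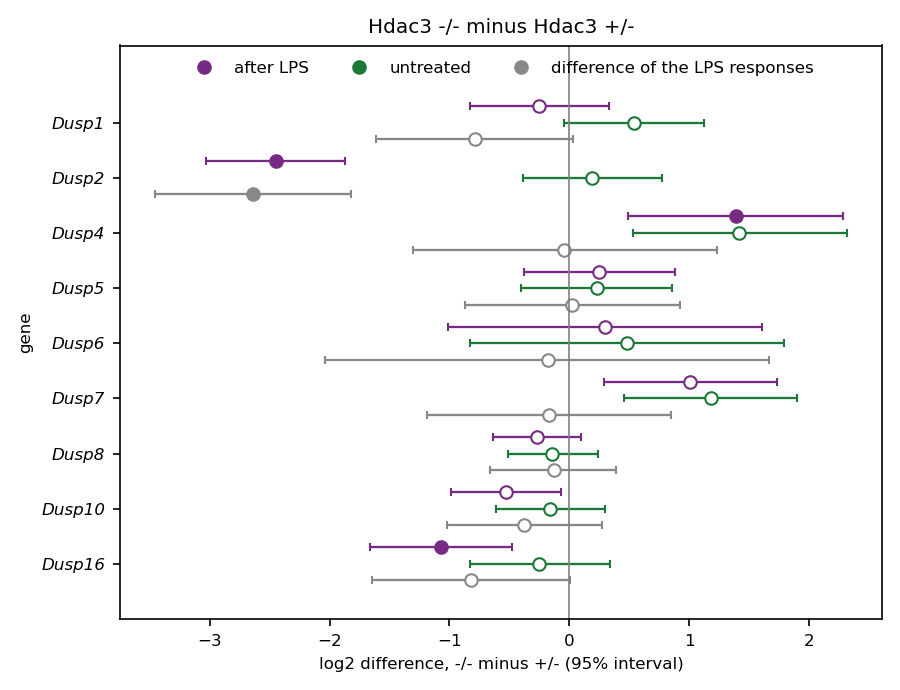
Log2 difference of Hdac3 -/- minus +/- for each gene after LPS (purple), untreated (green) and as the difference of the LPS responses (grey), with 95% intervals from limma. Filled points passed an adjusted p of 0.05. Dusp2 is low after LPS (-2.45) and in its response (-2.64) but near 0 untreated (0.19), whereas Dusp4 and Dusp7 lie above 0 by like amounts after LPS (1.39 and 1.01) and untreated (1.42 and 1.18).

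The kinases that these enzymes act on were read from lists of the pathway. Each count stands against the share over all genes, which with LPS was 3.69% higher and 5.18% lower in -/- and 9.59% higher and 15.5% lower in +/- macrophages, and between genotypes after LPS 9.69% higher and 5.99% lower in -/- macrophages. Among the MAP kinases, 9 genes were analysed here. In Hdac3 -/- macrophages 0 of the 9 were called with LPS by limma. In Hdac3 +/- macrophages 1 rose, Mapk6 (log2 change 1.12), and 2 fell, the p38 gene Mapk14 (-1.28) and Mapk7 (-0.83). After LPS 3 were higher in -/- than in +/- macrophages: Mapk14 (1.21), Mapk7 (0.81) and the JNK gene Mapk9 (0.51). The call of Mapk9 did not hold in 6 of 24 alternatives (limma adjusted p up to 0.0987), which were cyclic loess, the fit of those groups alone and the fits without -/- LPS replicate 1 or 3 or +/- LPS replicate 2 or 3. Mapk14 averaged 9.77 in -/- and 8.56 in +/- macrophages after LPS, and its responses differed by 1.19 ± 0.237 SE (limma adjusted p = 0.0303), a call that did not hold in 8 of 24 alternatives (adjusted p up to 0.0892). These were the replicate block and the fits without -/- LPS replicate 1 or 3, -/- untreated replicate 1 or 2, +/- LPS replicate 3 and +/- untreated replicate 2 or 3.

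Of 7 MAP kinase kinases 6 were measured. Map2k6, which activates p38, fell in both genotypes, by 1.17 in -/- and by 1.98 in +/- macrophages. In +/- macrophages Map2k4 (1.66), Map2k1 (1.14) and Map2k3 (0.78) rose and Map2k5 (-0.99) fell as well. In -/- macrophages 1 of the 6 was called, a count that changed in 13 of 25 alternatives and was up to 4, and 0 of the 6 had a called difference of the responses. Map2k2, an activator of ERK, was higher in -/- macrophages after LPS (0.77) and untreated (0.56). The untreated call did not hold in 6 of 24 alternatives (limma adjusted p up to 0.129). These were the fit of the untreated groups alone and the fits without -/- untreated replicate 1 or 2, +/- untreated replicate 1 or 2, or both arrays of +/- replicate 1. Of 17 upstream kinases and adaptors measured, 2 rose and 3 fell with LPS in -/- macrophages and 3 rose and 8 fell in +/- macrophages. Map3k8, which links Toll-like receptors to ERK, rose in +/- macrophages (0.91, limma adjusted p = 0.00636). Map3k1 fell in both genotypes (-1.31 in -/- and -1.21 in +/- macrophages). Map3k5, which activates JNK and p38, rose in -/- macrophages (1.20). Tnip2, an adaptor that binds the protein of Map3k8, rose in both genotypes (0.81 in -/- and 1.02 in +/- macrophages), and Tab2 rose in +/- macrophages (0.49). Map3k3 fell in both genotypes (-0.79 in -/- and -1.41 in +/- macrophages), as did Map3k11 (-0.66 in -/- and -0.84 in +/- macrophages). Map3k2 fell in +/- macrophages (-1.38). Between genotypes after LPS, 5 of the 17 were higher in -/- macrophages and 0 lower: Map3k2 (1.1), Map3k5 (0.83), Map3k3 (0.65), Map3k14 (0.65) and Irak1 (0.46). Of these calls the least stable were those of Irak1 after LPS, lost in 17 of 24 alternatives (adjusted p up to 0.28), Map3k11 with LPS in -/- macrophages, lost in 13 of 25, Map3k3 after LPS, lost in 12 of 24, and Tab2, lost in 11 of 25. Without both arrays of +/- replicate 1 the calls of Irak1, Map3k14 and Tab2 did not hold.

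Of 15 measured kinases and substrates downstream of the MAP kinases, 2 rose and 5 fell with LPS in -/- macrophages and 2 rose and 6 fell in +/- macrophages. The falls in -/- macrophages were those of Zfp36l1 (-2.11), Mknk2 (-1.48), Zfp36l2 (-1.45), Mknk1 (-1.31) and Rps6ka5 (-0.82), and the 3 greatest in +/- macrophages were those of Zfp36l2 (-2.79), Mknk2 (-2.30) and Zfp36l1 (-1.69). In -/- macrophages the call of Zfp36l2 was lost in 4 and that of Rps6ka5 in 6 of 25 alternatives. Zfp36, whose protein destabilises cytokine mRNAs and is regulated by p38, rose by 1.90 in -/- and 2.11 in +/- macrophages. Mapkapk2, the p38-activated kinase that phosphorylates it, rose by 1.23 in -/- and 1.01 in +/- macrophages. After LPS 3 of the 15 were higher in -/- than in +/- macrophages, Zfp36l2 by 1.90, Mapkapk2 by 1.02 and Mknk2 by 1.00, and 0 were lower. Untreated, Mapkapk2 was higher in -/- macrophages by 0.80, a call that did not hold in 16 of 24 alternatives (limma adjusted p up to 0.222). Among these were the replicate block, the fit without both arrays of +/- replicate 1, and the fits without any single array other than -/- untreated replicate 2 and +/- untreated replicate 2. Of 13 Sprouty, Spred and other feedback genes of ERK signalling, 2 rose with LPS in -/- macrophages (Phlda1 by 4.09 and Ier3 by 1.79), and 6 rose and 1 fell in +/- macrophages. There the 3 greatest rises were those of Phlda1 (2.46), Ier3 (2.44) and Errfi1 (2.04), and Spry3 fell (-0.43), a call lost in 15 of 24 alternatives. In -/- macrophages the log2 change of Errfi1 was 1.33, which was not called but passed the test in 7 of 25 alternatives. Spry2, an inhibitor of receptor tyrosine kinase signalling to ERK, averaged 6.18 in -/- and 7.90 in +/- macrophages after LPS (log2 difference -1.72 ± 0.404 SE, limma adjusted p = 0.0107). Spred1, an inhibitor of the same pathway, was lower in -/- macrophages after LPS by 0.87 (log2 difference -0.87, adjusted p = 0.012), a call lost without -/- LPS replicate 3 or +/- LPS replicate 3, and Phlda1 was higher (2.12, adjusted p = 0.00155). None of the 13 feedback genes had a called difference of the responses (0 by limma after adjustment, Spry2 -2.03 with an adjusted p of 0.124).

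Genes with the pattern most like a member's were named by the smallest root mean square difference of centred log2 signal over the 12 arrays, for members whose 4 groups differed by the limma F-test. The adjusted p of this F-test was between 1.68e-06 and 0.0151 for Dusp1, Dusp2, Dusp4, Dusp5, Dusp7 and Dusp16, and 0.17 or higher for Dusp6, Dusp8 and Dusp10. The closest genes to Dusp2 were the cytokine gene Il15 (0.286 log2 units) and Mxd1 (0.357), a partner of Max. Il15 averaged 7.76 in Hdac3 -/- and 9.96 in +/- macrophages after LPS, and 6.88 in both when untreated. Mxd1 averaged 7.99 in -/- and 10.99 in +/- macrophages after LPS, and 7.29 in -/- and 7.32 in +/- untreated macrophages. The closest to Dusp1 were the adhesion molecule Vcam1 (0.266) and the syndecan gene Sdc4 (0.277). Dusp4 was closest to the cytokine genes Tnf (0.465) and Tnfsf9 (0.486), at a wider distance. Dusp16 was closest to the potassium channel gene Kcna3 (0.345) and to Cemip2 (0.357). Dusp5 was closest to Wfdc21 (0.217) and Jmjd6 (0.22), and Dusp7 to Septin9 and Tnfrsf21 (0.374 each).

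The members also differed in how much replicates of a group varied. The residual SD was 0.956 log2 units for Dusp6, larger than in 99.7% of genes, 0.64 for Dusp4 and 0.22 for Dusp8, with a median of 0.202 over all genes. Relative to its group mean, Dusp6 was lowest in -/- LPS replicate 2 (-1.33) and -/- untreated replicate 3 (-1.24). Dusp4 was also low in -/- untreated replicate 3 (-1.0) and high in +/- untreated replicate 1 (1.03). Dusp5 deviated to the same side as Dusp6 on 11 of 12 arrays and Dusp7 on 9. Dusp1 and Dusp4 did so on 8, Dusp16 on 7, Dusp2 and Dusp10 on 4 and Dusp8 on 3. Of the 13 ERK feedback genes Spred2 and Etv5 did so on 11, Spry2 and Phlda1 on 9 and the other 9 on 2 to 7. At least 11 arrays were reached by 2.3% of all genes and at least 9 by 13.6%. The comparison was chosen after the values were seen, and deviations within a group of 3 sum to 0, so the counts are a description.

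**Figure D4:**
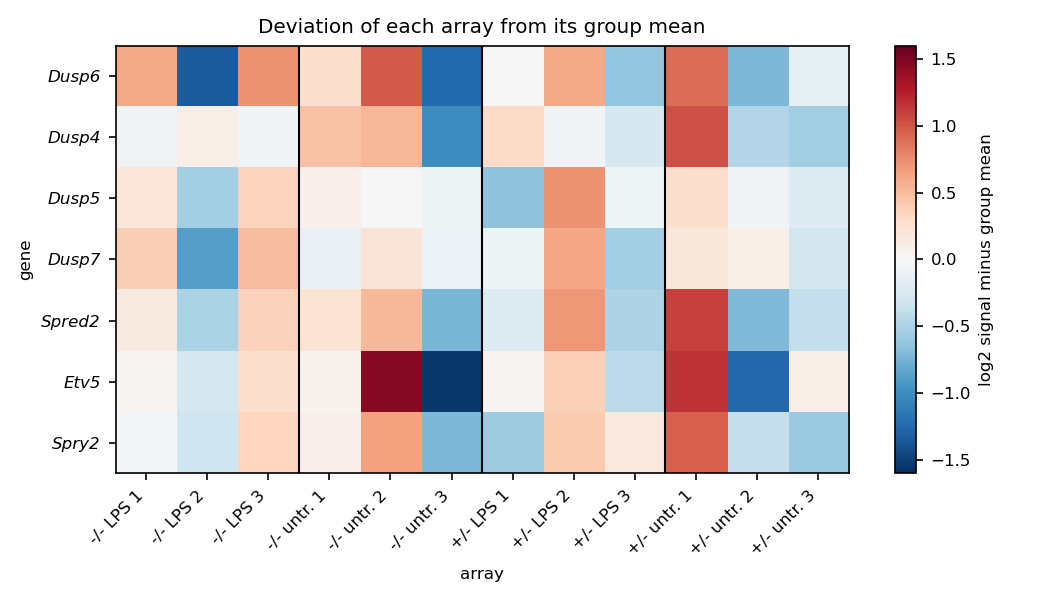
Log2 signal minus the mean of the array's own group, for Dusp6, Dusp4, Dusp5 and Dusp7 and for the ERK feedback genes Spred2, Etv5 and Spry2 (rows), over the 12 arrays (columns, grouped by lines). Red is above and blue below the group mean. Dusp6 is deep blue in -/- LPS replicate 2 (-1.33) and -/- untreated replicate 3 (-1.24).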

How the data were processed

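Per the submitters' processing notes, the authors used affy and RMA to obtain the deposited log2 signals of the probe sets. No version or genome build is named there. The interquartile range of the deposited signals was between 3.19 and 3.80 across arrays. Of 28193 probe sets, 21648 had 1 gene symbol in the platform annotation, 1313 several and 5232 none, and only the first kind was tested. Where a gene had several probe sets (954 genes), the brightest on average stood for it, which left 19945 genes. No filter on low values was applied, so all 9 members were tested.

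All 12 arrays entered a limma 3.58.1 fit of 4 group means (eBayes, R 4.3.3) with 5 contrasts and Benjamini-Hochberg adjustment over 19945 genes in each. Intervals are 95% intervals of limma's moderated statistic, not adjusted for the number of genes. The procedure was tested on simulated data. Python 3.11.15 was used with numpy 2.4.6 and pandas 2.3.3 for tables and matplotlib 3.10.9 for drawing. Marker levels are the log2 of the mean linear signal of a list. The spread between arrays and their number, 3 a group, limit how small a difference can be called.

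The members and the gene lists were chosen with earlier results of these data known. Named were all members, Hdac3, up to 3 called genes with the largest change per pathway list and comparison (all of them where 5 or fewer were called in a direction), and the 2 genes with the pattern most like each member that passed the F-test. Deviations from the group mean of untreated and LPS arrays with the same replicate number correlated at 0.243, 0.327 and 0.223 in Hdac3 +/- and at 0.0898, 0.195 and -0.122 in -/- macrophages. On these values the numbers were taken to pair the +/- arrays only, which the labels do not state. Untreated and LPS +/- arrays with different numbers correlated at -0.305 to 0.107. Untreated -/- replicate 3 and untreated +/- replicate 2, which share neither genotype nor number, correlated at 0.514. A correlation of this size thus does not by itself show a pair. Alternatives were other normalizations, a filter at a log2 signal of 5, other probe set rules, eBayes options, array weights, blocks and leaving out each array.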

Additional observations from a re-analysis of the deposited data

Results flagged for a closer look

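In 5 of the named genes the response to LPS differed between Hdac3 -/- and Hdac3 +/- macrophages by the test of the difference itself (limma, adjusted over all genes). Over all genes 1.08% passed this test. The named genes were chosen with earlier results known or for likeness to a member, so the 5 are not to be read against that share. For Dusp2 the difference, on the log2 scale and as -/- minus +/-, was -2.64 (adjusted p = 0.00382), and all 3 LPS arrays of -/- macrophages were below all 3 of +/- macrophages (as for 14.5% of all genes). For Dusp28, a phosphatase gene outside the MAP kinase phosphatases, it was -1.69 (adjusted p = 0.00827). For the p38 gene Mapk14 it was 1.19 (adjusted p = 0.0303). For Il15 and Mxd1, which were named because their pattern over the arrays was closest to that of Dusp2, it was -2.19 (adjusted p = 0.00402) and -2.97 (adjusted p = 0.000979), and since the likeness chose them these values add no evidence on Dusp2. In 24 alternatives the difference of Dusp2 was between -3.03 and -2.26, that of Dusp28 between -1.88 and -1.51 and that of Mapk14 between 1.05 and 1.33. The calls of Dusp2 and Dusp28 held in all 24, while that of Mapk14 did not hold in 8.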

How the results depend on the processing

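No call of a member turned its direction under any alternative, and Dusp2 kept its lower response and its lower signal after LPS in Hdac3 -/- macrophages in 24 of 24. The number of members called was 2 with robust eBayes for LPS in -/- macrophages, 5 with array weights after LPS between genotypes, and 1 between untreated genotypes with array weights, with only the groups compared, with the replicate block over all arrays (Dusp4, adjusted p = 0.0463) and without both +/- replicate 1 arrays, an alternative chosen after seeing the data. With the replicate block over all arrays Dusp7 lost its calls with LPS in both genotypes (adjusted p = 0.065 in -/- and 0.0572 in +/-). The replicate block within genotype, which blocked the arrays of both genotypes, changed no call of a member in +/- macrophages (6 called). In -/- macrophages, whose replicate numbers were not taken as pairs, Dusp5 gained a call in that fit (adjusted p = 0.0393). Leaving out 1 array at a time gave 2 to 5 members called for LPS in -/- and 4 to 6 in +/- macrophages, 1 to 3 between genotypes after LPS, 0 to 1 untreated and 1 to 1 for the difference of the responses. Over all genes these counts were 1129 to 1941 for LPS in -/- macrophages, 3636 to 5983 in +/- macrophages, 1685 to 3495 after LPS, 266 to 606 untreated and 97 to 349 for the difference of the responses. Array weights called 4424 genes for LPS in -/- macrophages, 1186 untreated and 592 for the difference of the responses, and fitting only the groups compared called 321 untreated. Cyclic loess moved the share of higher among called genes from 41.6% to 53.6% for LPS in -/- macrophages, from 38.3% to 49.2% in +/- macrophages and from 61.8% to 46.1% after LPS between genotypes. The causes of these changes were not tested. Background signal is not given in the values used, so how far it limits the dim members could not be tested.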

Other observations

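The other dual-specificity phosphatases and other phosphatases of MAP kinases followed no single course with LPS. Of 18 other dual-specificity phosphatase genes 0 rose and 2 fell in Hdac3 -/- macrophages, and 2 rose and 6 fell in Hdac3 +/- macrophages by limma. Over all genes LPS raised 3.69% and lowered 5.18% in -/- macrophages, and raised 9.59% and lowered 15.5% in +/- macrophages. The 3 greatest falls in +/- macrophages were those of Ssh2 (-1.22), Dusp3 (-1.19) and Dusp18 (-1.13), and Dusp11 rose there (0.40). The call of Ssh2 was lost in 12 and that of Dusp11 in 16 of 25 alternatives. Dusp3, an atypical phosphatase of ERK and JNK, fell by 0.65 log2 units in -/- macrophages (adjusted p = 0.0359) and by 1.19 in +/- macrophages (adjusted p = 0.000264). The call in -/- macrophages did not hold in 5 of 25 alternatives (limma adjusted p up to 0.165), which were the replicate block and the fits without -/- LPS replicate 1 or 2 or -/- untreated replicate 1 or 2. Dusp3 averaged 8.83 in -/- and 7.90 in +/- macrophages after LPS (log2 difference 0.93, adjusted p = 0.00305). Dusp22, an atypical phosphatase known for acting on JNK signalling, fell by 0.74 in -/- and by 1.03 in +/- macrophages. Dusp28 rose in +/- macrophages (1.17, adjusted p = 0.000601) and averaged 5.87 in -/- and 7.15 in +/- macrophages after LPS (log2 difference -1.28, adjusted p = 0.000589). Styx, a pseudophosphatase that binds ERK, was higher in -/- macrophages after LPS (0.70, adjusted p = 0.0238), a call lost in 7 of 24 alternatives (limma adjusted p up to 0.11).

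Of 8 other phosphatase genes that act on MAP kinases, 1 fell with LPS in -/- macrophages and 2 in +/- macrophages. Over all genes LPS lowered 5.18% in -/- and 15.5% in +/- macrophages. Between genotypes 9.69% of all genes were higher in -/- macrophages after LPS and 1.22% untreated. Ppm1d, a phosphatase of p38, fell by 0.73 in -/- (adjusted p = 0.00871) and by 1.51 in +/- macrophages (adjusted p = 1.15e-05). Ptpn7, a tyrosine phosphatase of ERK and p38 in blood cells, fell in +/- macrophages (-0.83, adjusted p = 0.0143), a call lost in 5 of 25 alternatives. After LPS 3 of the 8 were higher in -/- than in +/- macrophages by limma: Ptpn7 (1.03), Ppp2cb (0.76), a catalytic subunit of protein phosphatase 2A, and Ppm1d (0.53), whose call was lost in 8 of 24 alternatives. Untreated, Ppp2cb was the only one of the 8 called, averaging 9.37 in -/- and 8.73 in +/- macrophages (log2 difference 0.64, adjusted p = 0.0186), a call lost in 5 of 24 alternatives. Without both arrays of +/- replicate 1, neither Ppp2cb untreated nor Ptpn7 with LPS in +/- macrophages was called.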
